A study of Mus musculus with 163 samples.

Results

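The genes described are those for the proteins of the cytosolic ribosome. They were chosen by symbol from the annotation: protein-coding genes named Rpl or Rps with a number, with Rplp0, Rplp1, Rplp2 and Rpsa, and without the Rps6k kinases, Rps19bp1 and pseudogenes. Of the 55291 genes in the count table, 85 met this rule. They were 77 canonical genes, 46 of the large and 31 of the small subunit, and 8 paralogs or retrogenes (Rpl3l, Rpl7l1, Rpl10l, Rpl22l1, Rpl36al, Rpl39l, Rps27l and Rps27rt). Rps4l, annotated as a pseudogene, and the fusion gene Fau, whose name does not match, were not members.

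The data are read counts from 163 single hair cells of the mouse cochlea at postnatal day 7, with full-length cDNA made by a Smart-seq method. Outer hair cells (OHCs) amplify sound, and inner hair cells (IHCs) pass the signal on to the auditory nerve. The controls (Ctrl in the plots; 43 OHCs and 38 IHCs) carried 1 Atoh1 allele with a P2A-tdTomato insertion. The mutants (Exp in the plots; 56 OHCs and 26 IHCs) carried Atoh1 with P2A-Cre in 1 allele and P2A-tdTomato in the other, and floxed alleles of Rbm24, an RNA-binding protein gene, on both chromosomes. Atoh1 is the hair cell transcription factor, so Cre acts in hair cells and other cells of that lineage. Cre and a second modified Atoh1 allele were thus present only in the mutants and cannot be told apart from the loss of Rbm24. No label names the animal of a cell or says how a picked cell was called OHC or IHC.

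Each ribosome carries 1 copy of most of these proteins, which are made together and joined to ribosomal RNA in the nucleolus. Many of their mRNAs begin with a run of pyrimidines, the 5′-terminal oligopyrimidine (TOP) motif, through which mTOR signalling and the protein Larp1 control their translation. A few members have a paralog that can take their place. Among these, the Rpl22 protein is known to bind the Rpl22l1 mRNA and lower its level.

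Since each group is 1 sample, no test across samples was possible and no p-value is given. Levels are counts per 1000000 (CPM) of the counts summed over a group, and differences are log2 ratios of such CPM with a 95% interval. The reads have no molecular identifiers, so these intervals hold the error of counting alone, without any variation among animals. Cells held 5467115 to 18072166 counts. The Rbm24 level was 315 CPM in control OHCs and 0.212 CPM in mutant OHCs, and 431 against 1.51 CPM in the IHC groups. Genes of supporting cells summed to 100 CPM or more in 6 control OHCs, 2 mutant OHCs, 7 control IHCs and 0 mutant IHCs. Genes of a neuron list (Tubb3, Nefl, Nefm, Snap25, Prph and Gap43), some of which hair cells express, summed to a median of 335 CPM in control and 829 CPM in mutant OHCs, and 723 and 1420 CPM in the IHC groups, with Prph at 0 in all. Their part in the results below was not tested. The OHC markers Slc26a5 and Ocm were at 376 and 4951 CPM in control OHCs and at 27.5 and 18.6 CPM in mutant OHCs.

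The bases around the start, where a TOP motif would lie, are shown first for a few members whose values are described below. Start sites were taken from RefSeq promoter windows (GRCm38.p6), which held 77 windows for 65 members. The capitals mark the longest run of C and T that lay within 10 bases before to 15 bases after the annotated start, cut at the end of the printed stretch. Each stretch has 30 bases before the start and 10 after it. Rpl38 is at chr11:114668550-114668589 (+), Rpl22l1 at chr3:28805478-28805517 (+), Rpl7a at chr2:26910777-26910816 (+), Rpl14 at chr9:120571487-120571526 (+), and Rpl27 at chr11:101442215-101442254 (+).
Rpl38: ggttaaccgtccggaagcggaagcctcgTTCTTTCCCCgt
Rpl22l1: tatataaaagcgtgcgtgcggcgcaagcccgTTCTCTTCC
Rpl7a: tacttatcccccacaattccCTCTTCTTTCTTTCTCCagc
Rpl14: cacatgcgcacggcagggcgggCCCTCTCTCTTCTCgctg
Rpl27: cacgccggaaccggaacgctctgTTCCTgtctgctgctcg
A run of 8 or more C or T was found in 29.9% of the members' windows and in 9.49% of all 32851 promoter windows. The letters CTTTC, searched on the gene's strand only, were in 20.8% of the members' windows and 3.10% of all. The run of Rpl27 had 5 bases and ended before the annotated start, so its stretch shows no TOP motif. Members that were higher in mutants (Rpl38, Rpl7a) and members that were lower (Rpl14, Rpl22l1) both had long runs. No relation of run length to the ratios was tested.

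The members shared 2 other features of the genome. Small nucleolar RNA genes lay inside 30 of the 85 (35.3%), against 1.74% of 12228 protein-coding genes at 1 CPM or more. Their mRNAs also have many near copies: the median member shared 50.3% of its windows of 75 bases with another annotated transcript. Only 4 members shared none, among them Rps3, Rpl3l and Rpl39l, and 44 shared 50% or more. How the authors' counting treated reads that match several places is not given in the sources used here. The 4 genes Rpl24, Rps10, Rpl13a and Rpl36al, which read very low (0.679, 3.06, 12.8 and 0.915 CPM in control IHCs), also overlap another annotated gene. Other overlapped members read higher, such as Rpl35 (68.3% of exon bases, 225 CPM in the mean of the groups) and Rpl5 (46.6%, 469 CPM). Whether overlap lowered the counts of the 4 was not tested, and their levels are uncertain.

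Per kilobase of transcript, the highest member was Rpl41, the smallest ribosomal protein, at 2727 CPM per kilobase in the mean of the groups. Rps29, Rps14 and Rplp1 followed at 1437, 1362 and 1223 CPM per kilobase. Within a group, Rps18 and Rps2 varied least among cells of the members at 10 CPM or more, with a mean SD of 0.375 and 0.382 on the log2(CPM + 1) scale. The paralog Rpl7l1 varied most, with an SD of 2.38. Across cells, a member's level followed the sum of the other members with a median Spearman correlation of 0.62 in control OHCs, 0.48 in mutant OHCs, 0.70 in control IHCs and 0.50 in mutant IHCs (79 members). These correlations are descriptions, since all members of a cell share its library and depth.

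The members together took 2.42% of the counts in the median control OHC, with cells from 1.44% to 5.13%. In mutant OHCs the share had a median of 2.83% and ran from 1.67% to 4.29%. control IHCs had a median of 2.61% (1.81% to 4.66%) and mutant IHCs one of 2.81% (1.97% to 3.58%). All 4 ranges overlapped. The share was lower in cells with more counts in 3 groups (Spearman -0.36 in control OHCs, -0.47 in mutant OHCs and -0.24 in control IHCs) and not in mutant IHCs (0.16), and the median total was 9.09e+06 counts in control OHCs against 1.28e+07 in mutant OHCs. The part of depth in the result was not tested. These are shares of counts, and the amount of RNA per cell was not measured.

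A pseudogene of one member split the cells. Gm15772 (chr5:3236431-3236868, +, a processed pseudogene that RefSeq also lists under the name Rpl26) has the 438-base coding sequence of Rpl26, a large subunit protein near the exit tunnel, with 2 substitutions, C177T and T288C, counted from the A of the start codon, with the base of Rpl26 first. The stretches around them show how alike the copies are, with the differing base in capitals.
Rpl26, bases 162 to 192: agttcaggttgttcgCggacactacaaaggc
Gm15772, bases 162 to 192: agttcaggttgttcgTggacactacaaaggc
Rpl26, bases 273 to 303: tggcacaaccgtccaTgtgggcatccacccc
Gm15772, bases 273 to 303: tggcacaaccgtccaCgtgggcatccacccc
Gm15772 was under 40 CPM in 71 cells (2.86 to 22.1 CPM) and above it in 92 (61.4 to 768 CPM), with no cell between 22.1 and 61.4 CPM. In every group the cells of each set had consecutive numbers in the labels: control OHCs 1 to 18, control IHCs 1 to 15, mutant OHCs 17 to 56 and mutant IHCs 8 to 26 were high. At a limit of 10 CPM, all 71 low cells had Y-linked transcripts and no Xist, and so did 7 high control OHCs and 3 high control IHCs.

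Rpl26 itself differed between the sets. In control OHCs its summed level was 367 CPM in the 25 low cells and 165 CPM in the 18 high cells. Of these 18, 6 were under 40 CPM (9.44 to 34.7 CPM), and the others ran from 60.4 to 620 CPM. All 6 had Y-linked transcripts and no Xist, as did the 2 high control IHCs under 40 CPM. No high mutant cell had Y-linked transcripts only. The sums of high control cells thus mix cells that the high mutant sets lack. mutant OHCs had 449 CPM in low and 266 CPM in high cells. In control IHCs the values were 464 and 278 CPM, and in mutant IHCs 433 and 251 CPM. Parent and copy together differed less: 375 against 485 CPM in control OHCs, 465 against 513 CPM in mutant OHCs, 474 against 600 CPM in control IHCs and 447 against 467 CPM in mutant IHCs. The copy held 2.12% of the pair's counts in low and 66.0% in high control OHCs. A value for Rpl26 alone therefore depends on which cells a group holds.

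**Figure D1:**
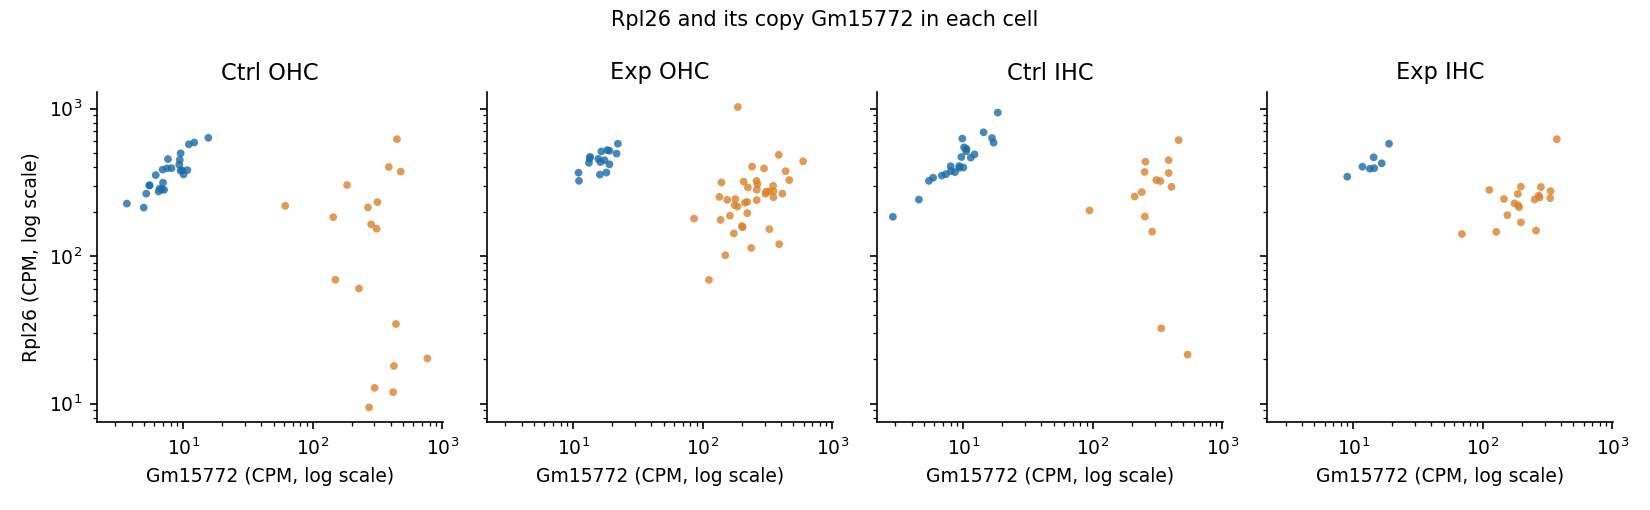
Level of Rpl26 (vertical) against its pseudogene Gm15772 (horizontal) in each cell, both in CPM on log scales, 1 panel per group. Blue cells are under 40 CPM in Gm15772 and orange cells above it; the 2 sets are separated by the gap from 22.1 to 61.4 CPM, and the orange cells reach lower Rpl26 levels.

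The family's share of counts also differed between these 2 sets in the controls. The median share of counts was 2.14% in low and 2.81% in high control OHCs, and 2.34% and 3.33% in control IHCs. Low and high mutant OHCs had 2.80% and 2.87%, and low and high mutant IHCs had 2.84% and 2.69%. Of the members at 1 CPM or more, 73 of 81 were higher in high than in low control OHCs (median log2 ratio 0.48) and 75 of 81 in control IHCs (0.38). In mutants the counts were 46 of 82 in OHCs (0.04) and 27 of 82 in IHCs (-0.12). The same counts were not made over all genes, so a trait of the family cannot be told apart from a general shift. Among control OHCs with Y-linked transcripts only, the median share was 2.14% in the 25 low cells and 2.42% in the 7 high cells. The sets had unequal weight in the 2 genotypes, with 18 of 43 control OHCs but 40 of 56 mutant OHCs high. Cells with Y-linked transcripts only were also unequal: 32 of 43 control and 16 of 56 mutant OHCs, and 26 of 38 and 7 of 26 IHCs. In the mutants these were the same cells as the low sets, so the 2 splits cannot be told apart there. What the sets stand for was not tested, and they were not matched between the genotypes in other near copies. The Rpl15 copy Gm10020 was at 0.968 CPM in low control and 37.2 CPM in low mutant OHCs. In low IHCs it was at 1.03 and 31.7 CPM, and in high OHCs at 39.2 and 40.2 CPM. The Rpl3 copy Rpl3-ps1 was at 47.2 CPM in high control and 154 CPM in high mutant OHCs. The Rpl14 copy Rpl14-ps1 differed less. A ratio within low or high cells thus does not compare matched cells. A genotype ratio of a pooled group is therefore a value for its mix of cells. Between low and high cells the sign was opposite for 48 of 82 members in OHCs and 46 of 81 in IHCs. The share of all genes with opposite signs was not counted, so these counts do not set the members apart from other genes.

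**Figure D2:**
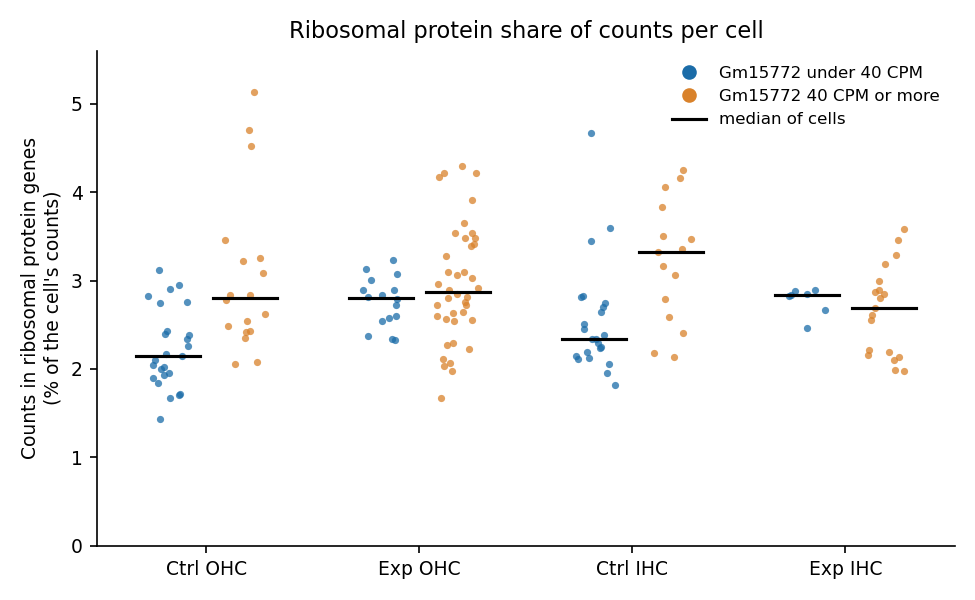
Share of each cell's counts in the 85 ribosomal protein genes, in percent (vertical), by group, with cells under (blue) and above (orange) 40 CPM in Gm15772; black lines are medians. Blue control cells lie lowest, at medians of 2.14% and 2.34%, while both mutant sets lie between 2.69% and 2.87%.

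Mutant OHCs were compared with control OHCs. Most members were slightly higher in the mutant cells: 69 of 82 at 1 CPM or more, with a median log2 ratio of 0.18 (order-statistic interval over members 0.13 to 0.29). Among all 14588 genes at 1 CPM or more, 53.2% were higher and 46.8% lower, with a median of 0.06. Among the 2195 genes at 100 CPM or more, the level of most members, 52.5% were higher, with a median of 0.04. Large and small subunit genes did not part: 39 of 46 and 27 of 31 were higher, with medians of 0.20 and 0.18. By set, 27 members were higher in both low and high OHCs and 7 lower in both, which was not counted over all genes. Few members differed by much in the pooled cells. There were 6 higher by over 1.5-fold (Rps12, Rpl38, Rpl7a, Rpl22, Rpl23a and Rpl36al), against 27.5% of all genes and 16.1% of those at 100 CPM or more. Only Rplp1 was lower by as much, against 21.5% and 14% of genes. The direction for the family held in the low cells (median 0.40) and not in the high cells (-0.11), sets not matched between the genotypes. The median was 0.32 in cells with Y-linked transcripts only (32 control, 16 mutant) and -0.15 in cells with Xist only (10 and 34). So the higher level in the pooled OHCs is a statement about this mix of cells.

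Rpl38, a large subunit protein known for its part in translating certain developmental mRNAs, was higher in mutant OHCs in both sets of cells. Its level in control OHCs ran from 34.7 to 240 CPM with a median of 95.2 CPM, and in mutant OHCs from 50.4 to 417 CPM with a median of 172 CPM. The ranges overlapped, but the medians stood apart, and the log2 ratio of the sums was 0.84 (0.83 to 0.86). It was 0.72 in low and 0.88 in high cells. Rpl38 was the only member higher by over 1.5-fold in both sets of OHCs. In IHCs the medians were 155 CPM in controls and 204 CPM in mutants, with a log2 ratio of 0.21.

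Rps12, Rpl7a and Rpl23a, on the small subunit, the large subunit and the exit tunnel, were also higher in mutant OHCs, from low levels. Rps12 was at 19.3 CPM in control OHCs and 38.2 CPM in mutant OHCs, a log2 ratio of 0.98 (0.95 to 1.02). Single cells ran from 0 to 88.4 CPM and from 0.0623 to 118 CPM, so that the groups overlapped nearly in full. The Rps12 ratio was 1.81 in low cells and 0.25 in high cells. Rpl7a was at 28.7 and 48.9 CPM, a log2 ratio of 0.77, with 1.62 in low and -0.02 in high cells. Rpl23a was at 21.9 and 33.1 CPM, a log2 ratio of 0.59, with 0.94 in low and 0.05 in high cells. Rps12 shares 89.5%, Rpl7a 77.4% and Rpl23a 81.7% of its windows with other transcripts. In Rpl23a, 55.4% of the exon bases also overlap Tlcd1. With near copies added by sequence, the ratios of Rps12, Rpl7a and Rpl23a were 0.94, 0.44 and 0.40. Rpl7, another large subunit protein, had a log2 ratio of 0.56 from 463 CPM, with 0.58 in low and 0.48 in high cells.

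Against that trend, 13 members were lower in mutant OHCs. Rplp1, an acidic protein of the stalk that recruits elongation factors, had the lowest ratio. Its level in control OHCs ran from 339 to 2431 CPM with a median of 683 CPM. In mutant OHCs it ran from 208 to 878 CPM with a median of 426 CPM. The groups overlapped, and the log2 ratio of the sums was -0.68 (-0.69 to -0.67), with -0.41 in low and -1.06 in high cells. Without the highest cell of each group, which held 11.8% of the control OHC counts of Rplp1, it was -0.57. Of the other stalk genes, Rplp0 was higher (log2 ratio 0.46, with 0.44 in low and 0.32 in high cells). Rplp2 was at 0.30 in the pooled cells, with 0.93 in low and -0.31 in high cells, and Rpl12 at -0.11, with 0.09 and -0.42. In high cells Rplp1, Rplp2 and Rpl12 were thus all below 0, and Rplp0 was not.

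Rps29, a zinc-binding protein of the small subunit, was also lower. control OHCs ran from 297 to 1795 CPM with a median of 684 CPM, and mutant OHCs from 225 to 1208 CPM with a median of 460 CPM. The log2 ratio was -0.56 (-0.57 to -0.56). It was -0.70 in low and -0.50 in high cells, the same direction in both sets. Rpl14 (log2 ratio -0.29), Rpl13a (-0.28), Rps28 (-0.15) and Rps15 (-0.12) were the next lowest canonical members. For Rpl14 the ratio was -0.04 in low and -0.70 in high cells. The other 3 changed direction between the sets: Rpl13a was at -0.81 in low and 0.09 in high cells, Rps28 at 0.21 and -0.43, and Rps15 at 0.12 and -0.55.

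**Figure D3:**
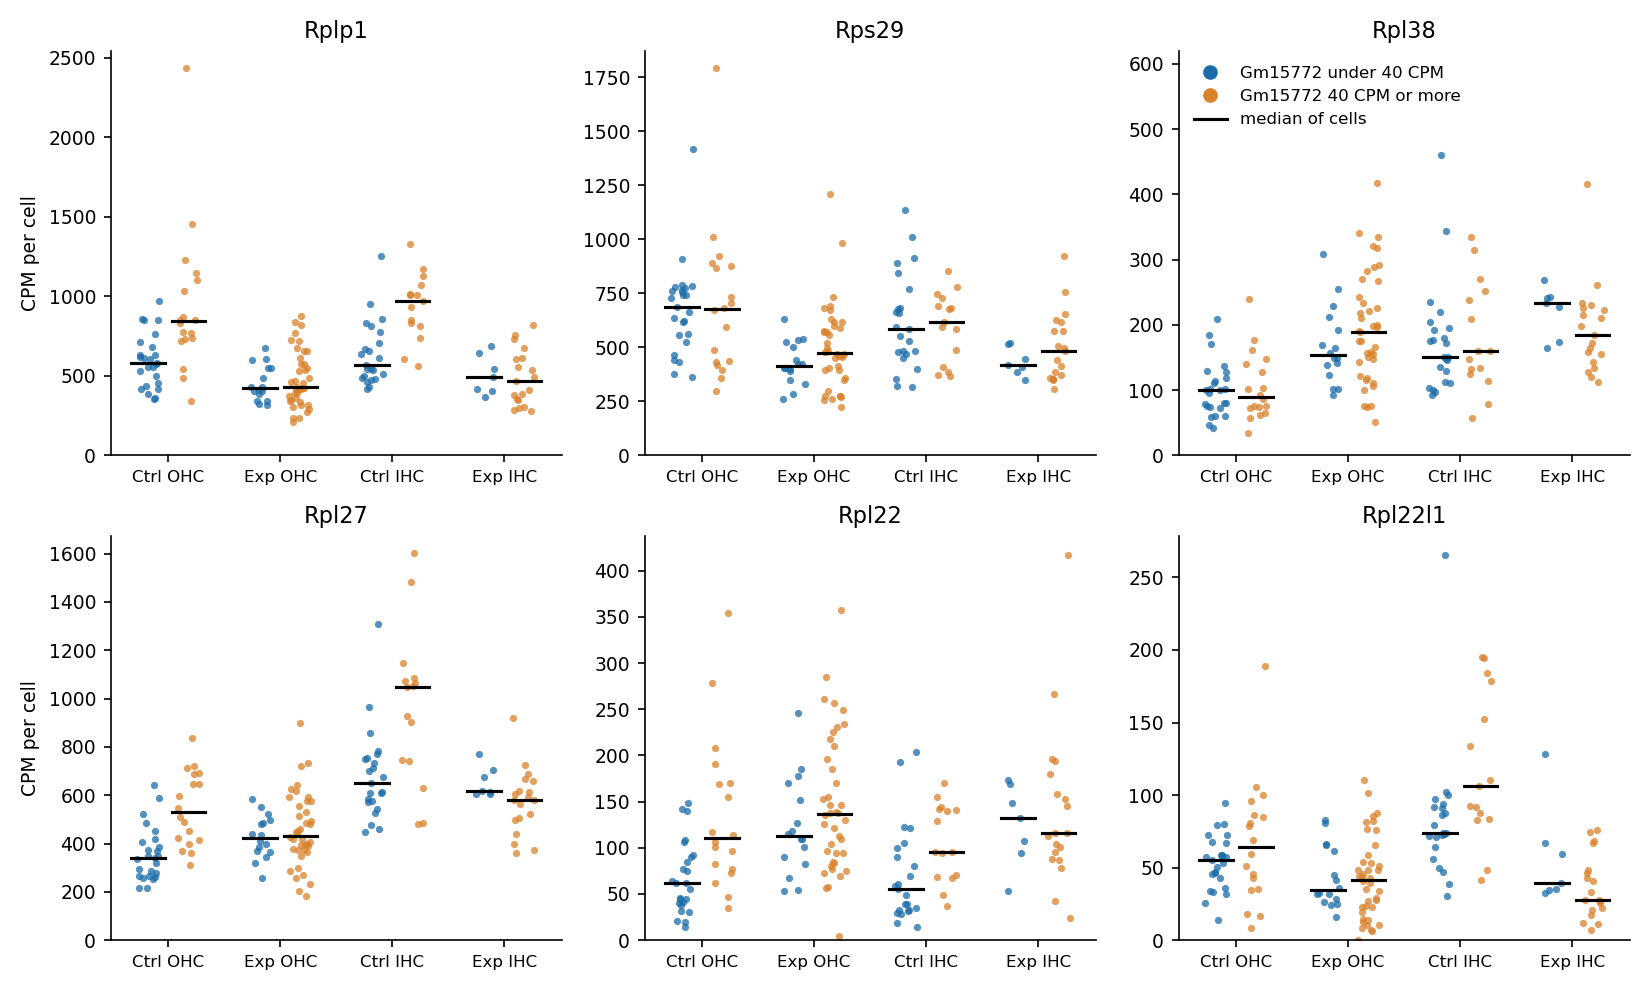
CPM per cell (vertical, from 0) of 6 members by group, with cells under (blue) and above (orange) 40 CPM in Gm15772; black lines are medians. Rplp1 and Rps29 are lower in the mutant groups and Rpl38 is higher in Exp than in control OHCs, while Rpl27 is highest in control IHCs and Rpl22 and Rpl22l1 go opposite ways; cells of the groups overlap in every panel.

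Mutant IHCs were compared with control IHCs. The family did not lean to one side: 36 of 81 members were higher and 45 lower, with a median log2 ratio of -0.02 (-0.08 to 0.06). Among all 14557 genes at 1 CPM or more, 55.9% were higher and 44.1% lower, with a median of 0.11, and among those at 100 CPM or more 55% were higher. The 46 large subunit genes were even, with 23 higher, and 12 of the 31 small subunit genes were higher. The members higher by over 1.5-fold were 3 (Rpl24, Rpl22 and Rpl7a), against 28.9% of all genes and 14.4% of those at 100 CPM or more. There were 2 lower by as much (Rpl22l1 and Rpl13a), against 19.5% and 9.46%. With TMM scaling, which sets the bulk of genes near 0 (median over all genes 0.02), 28 of 81 members were higher and their median was -0.11. As in OHCs, the median depended on the cells: 0.21 in low cells and -0.33 in high cells, with 7 and 19 mutant IHCs in these sets.

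Rplp1, Rps29 and Rpl14 were again on the lower side. Rplp1 ran from 417 to 1330 CPM in control IHCs (median 722) and from 280 to 822 CPM in mutant IHCs (median 478). Its log2 ratio was -0.57 (-0.58 to -0.56), with -0.32 in low and -0.91 in high cells. Rps29 had medians of 596 and 444 CPM and a log2 ratio of -0.32, with -0.50 in low and -0.22 in high cells. Rpl14 was at 432 CPM in control IHCs and 316 CPM in mutant IHCs, a log2 ratio of -0.45, with -0.33 in low and -0.79 in high cells. Rps12 and Rpl7a had log2 ratios of 0.53 and 0.59. In low cells these were 1.49 and 1.20, and in high cells -0.26 and 0.14. The overlap of the IHC groups was again wide for each of these genes.

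Other members at the ends in IHCs were Rpl30 (0.46) and Rpl31 (0.40), large subunit proteins, on the higher side. In low and high cells Rpl30 was at 1.21 and -0.09, and Rpl31 at 0.69 and 0.09. On the lower side were Rpl26 (-0.40), Rpl27 (-0.39) and Rpl39 (-0.35), of which Rpl26 and Rpl39 lie at the exit tunnel. By set, Rpl27 was at -0.05 in low and -0.75 in high cells and Rpl39 at 0.03 and -0.69. Rpl26 was at -0.10 and -0.15, both nearer to 0 than the pooled value. Together with Gm15772, Rpl26 was at 519 CPM in control IHCs and 462 CPM in mutant IHCs. The largest ratio, that of Rpl24 (2.59), was from 0.679 to 4.12 CPM, where 1 cell gave 43.8% of the mutant counts. With near copies added by sequence it was 0.42. Rpl13a was lower (-0.65) at 12.8 against 8.15 CPM, with -1.88 in low and -0.32 in high cells and -0.25 with near copies added.

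**Figure D4:**
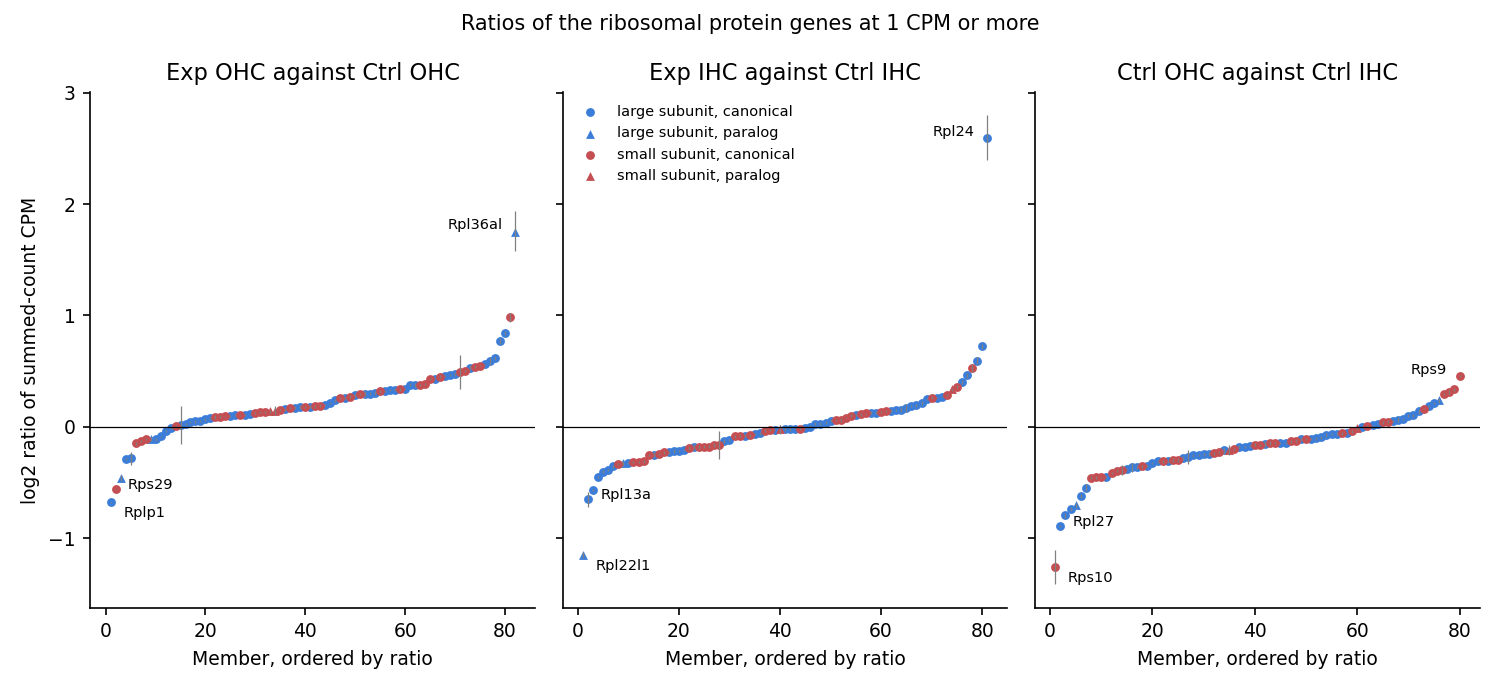
Log2 ratio of summed-count CPM (vertical) of each member at 1 CPM or more, ordered by ratio (horizontal), in the 3 comparisons; circles are canonical genes, triangles paralogs, colours the subunit, and grey bars 95% counting intervals. Most members lie above 0 in OHCs (69 of 82), on both sides in IHCs (36 of 81 above) and below 0 in control OHCs against control IHCs (60 of 80).

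Rpl22 and its paralog Rpl22l1 parted in both cell types. Rpl22 (chr4:152325742-152334071, +) had medians of 77.4 CPM in control OHCs and 126 CPM in mutant OHCs, and 70.1 and 116 CPM in the IHC groups. Its log2 ratios were 0.62 in OHCs and 0.72 in IHCs. In low and high cells they were 0.91 and 0.14 in OHCs and 0.81 and 0.42 in IHCs, and in OHCs with Xist only the ratio was 0.03. Rpl22l1 (chr3:28805436-28807424, +) had medians of 57.2 CPM in control OHCs and 40.1 CPM in mutant OHCs. In IHCs they were 86.8 CPM (30.4 to 265) and 34.9 CPM (7.17 to 128). Its log2 ratios were -0.46 (-0.48 to -0.43) in OHCs and -1.15 (-1.18 to -1.12) in IHCs. In low and high cells they were -0.25 and -0.70 in OHCs and -0.50 and -1.69 in IHCs.

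Within a cell, the paralog's part of the pair does not depend on how counts are scaled. Rpl22l1 made up a median of 41.6% of the pair's CPM in control OHCs and 22.2% in mutant OHCs. In IHCs the medians were 58.3% and 21.6%. It exceeded Rpl22 in 13 of 43 control OHCs, 3 of 56 mutant OHCs, 23 of 38 control IHCs and 2 of 26 mutant IHCs. The order held in both sets of cells: 42.6% against 24.5% in low OHCs, 34.2% against 22.0% in high OHCs, 61.3% against 26.7% in low IHCs and 55.4% against 19.2% in high IHCs. Ranges overlapped, from 8.93% to 79.9% in control OHCs and from 0.0626% to 95.4% in mutant OHCs. Rpl22 shares 7.00% of its windows with other transcripts and Rpl22l1 58.6%, and 28.8% of the exon bases of Rpl22l1 overlap Gm33051. With near copies added the log2 ratios of Rpl22l1 were -0.47 and -1.13.

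The other paralogs were also set beside the member each is named after. Rps27l, close in sequence to Rps27, had log2 ratios of 0.14 in OHCs and 0.34 in IHCs, beside 0.54 and 0.26 for Rps27. In low and high OHCs Rps27l was at -0.11 and 0.30. Rpl7l1 was at -0.11 and -0.33, beside 0.56 and 0.27 for Rpl7, and took a median of 17.7% and 8.93% of that pair in Ctrl and mutant OHCs, and 12.8% and 7.89% in the IHC groups. In high IHCs its part was 7.40% in controls and 7.90% in mutants. Rps27rt was at 0.15 and -0.02, from 22.9 CPM in control OHCs and 26.5 CPM in control IHCs. It was at 1.13 in low and -0.72 in high OHCs, and at 1.26 and -1.10 in IHCs. Rpl36al was at 0.738 CPM in control OHCs and 2.49 CPM in mutant OHCs, a log2 ratio of 1.75 beside 0.18 for Rpl36a. That ratio was -0.20 in high cells and 0.93 with near copies added. Rpl3l, a muscle form of Rpl3, was at 0.987 CPM in control IHCs and at 0 counts in the other 3 groups, where 3 counts would be at most 0.00822 CPM. Rpl10l and Rpl39l, testis forms, were at or near 0.

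The genotype ratio in OHCs was then set beside that in IHCs, 2 comparisons that share no cells. Over the 81 members in both, the OHC ratio was the greater in 67, with a median difference of 0.24 (0.18 to 0.32). There were 34 higher in mutants of both cell types, 11 lower in both, 34 higher in OHCs and lower in IHCs, and 2 the reverse. Among all genes at 1 CPM or more, 53.2% were higher in mutant OHCs (median 0.06) and 55.9% in mutant IHCs (median 0.11). The joint counts of the 2 cell types were not made over all genes. Across members the ratios had a Pearson correlation of 0.44 and a Spearman correlation of 0.60, as a description. The median difference was 0.22 in low and 0.23 in high cells, and 0.16 in cells with Y-linked transcripts only. No test of the difference was possible with 1 sample a group.

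**Figure D5:**
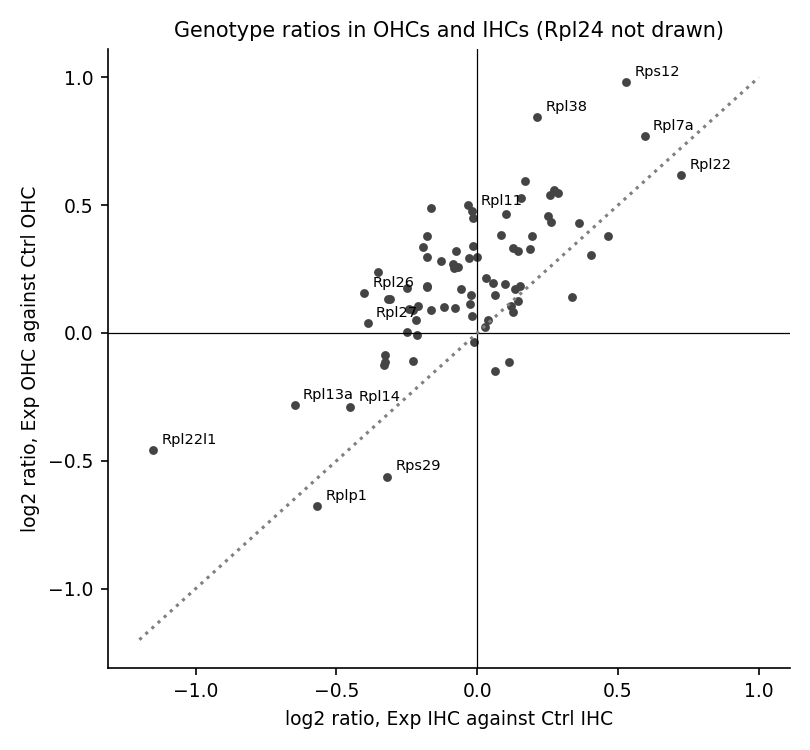
Log2 genotype ratio of each member in OHCs (vertical) against IHCs (horizontal), with a dotted line where they are equal; Rpl24, at 2.59 in IHCs, is not drawn. Most members, 67 of 81, lie above the dotted line, with Rplp1, Rps29, Rpl14 and Rpl22l1 low on both axes and Rpl22, Rps12 and Rpl7a high on both.

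By position in the ribosome, no group of members was higher or lower as a block in both cell types. The 7 exit tunnel and rim genes (Rpl4, Rpl17, Rpl22, Rpl23a, Rpl26, Rpl35 and Rpl39) were all higher in the pooled mutant OHCs (median 0.33), and 3 of 7 in IHCs (-0.02). In high OHCs Rpl17 and Rpl39 were below 0 (-0.16 and -0.14). Rpl5 and Rpl11, which with 5S RNA bind Mdm2, had log2 ratios of 0.19 and 0.48 in OHCs and 0.06 and -0.02 in IHCs. Rpsa, which is also a laminin receptor, was at 0.13 and -0.32, with 0.63 in low and -0.40 in high OHCs. Rps6, the S6 kinase substrate, was at 0.15 and 0.06, and Rps27a, made as a fusion with ubiquitin, at 0.32 and -0.08. Rps27a was at 0.72 in low and -0.04 in high OHCs, and at 0.51 and -0.52 in IHCs. Of the 4 X-linked members, Rpl10, Rpl36a and Rpl39 were higher in the pooled mutant OHCs (0.32, 0.18 and 0.24) and Rps4x was at 0.00. In high OHCs all 4 were below 0, at -0.23, -0.06 and -0.14 for the first 3 and -0.12 for Rps4x. In IHCs Rpl10 was at 0.14, with 0.79 in low and -0.39 in high cells, and the other 3 were below 0. Cells with Xist only were 10 of 43 control and 34 of 56 mutant OHCs, and 12 of 38 and 19 of 26 IHCs. The part of this imbalance in the X-linked values was not tested.

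Control OHCs were compared with control IHCs, which share their cells with the genotype comparisons. The family was lower in OHCs: 60 of 80 members were lower and 20 higher, with a median log2 ratio of -0.16 (-0.24 to -0.11). Among all 14445 genes at 1 CPM or more, 47.9% were lower and 52.1% higher, with a median of 0.04, and at 100 CPM or more 51.4% were higher. The members' median was -0.20 in low and -0.12 in high cells, so this direction was the same in both sets. None was higher by over 1.5-fold, against 24.6% of all genes and 13.1% of those at 100 CPM or more. There were 6 lower by as much (Rps10, Rpl27, Rpl38, Rpl39, Rpl22l1 and Rpl36a), against 21% and 10.5%.

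Rpl27, a large subunit protein, was the lowest well-measured member in control OHCs. Its level ran from 216 to 836 CPM in control OHCs with a median of 399 CPM, and from 449 to 1603 CPM in control IHCs with a median of 738 CPM. Ranges overlapped between 449 and 836 CPM. The log2 ratio was -0.89 (-0.90 to -0.88), with -0.95 in low and -0.83 in high cells. mutant OHCs had a median of 431 CPM and mutant IHCs one of 606 CPM, so the order was the same in the mutants.

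Rpl38 was at 101 CPM in control OHCs and 175 CPM in control IHCs, a log2 ratio of -0.80. With 181 CPM in mutant OHCs and 203 CPM in mutant IHCs, the gap between the cell types was smaller in the mutant sums, which was not tested. Rpl39, an exit tunnel protein, had medians of 128 CPM in control OHCs and 235 CPM in control IHCs and a log2 ratio of -0.74. Rpl22l1 followed at -0.70 and Rpl36a at -0.62. Rpl22l1, Rpl38, Rpl27 and Rpl39 were lower by over 1.5-fold in both the low and the high cells. Rps10 had the lowest ratio (-1.26), at 1.28 against 3.06 CPM, with -2.33 in low and -0.37 in high cells and -0.38 with near copies added. Among the highest were the small subunit genes Rps9 (0.45, 524 against 383 CPM), Rps28 (0.31) and Rps14 (0.29), and the large subunit gene Rplp0 (0.21).

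Genes that make ribosomes or work with them were taken from lists. Of 18 measured TOP mRNAs that are not members, 12 were higher in mutant OHCs (median 0.17) and 9 in IHCs (-0.02), close to the members' own medians. Among them Nap1l1, a histone chaperone, was at 0.87 and 0.77, and the initiation factor Eif4b at -0.71 in OHCs. Initiation factors were higher for 21 of 36 in both cell types, with medians of 0.08 and 0.10. For elongation and termination factors, 6 of 12 were higher in OHCs and 4 of 13 in IHCs. Ribosome biogenesis genes were higher for 27 of 43 in OHCs and 25 of 43 in IHCs, with medians of 0.06 in both. Mitochondrial ribosomal proteins, which share no ribosome with the members, were higher for 42 of 77 in OHCs (0.04) and 29 of 77 in IHCs (-0.07). Of these Mrps6 had the highest OHC ratio (1.88). For the mTOR and TOP control genes, 12 of 21 were higher in OHCs and 10 of 20 in IHCs. Among all genes at 1 CPM or more, 53.2% were higher in OHCs (median 0.06) and 55.9% in IHCs (0.11). In the order above, the lists had 66.7%, 58.3%, 50%, 62.8%, 54.5% and 57.1% in OHCs. In IHCs they had 50%, 58.3%, 30.8%, 58.1%, 37.7% and 50%. Initiation factors and mTOR and TOP control genes lay near the share of all genes in both. The lists were not split into low and high cells.

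In control OHCs against control IHCs, 31 of 43 biogenesis genes were lower (median -0.17), as were 54 of 77 mitochondrial ribosomal proteins (-0.14). Among all genes at 1 CPM or more, 47.9% were lower (median 0.04). The lean of the cytosolic members in that comparison was thus also seen in these 2 lists, and not in the 36 initiation factors, of which 18 were lower (median 0.00). Of the TOP mRNAs that are not members, 10 of 18 were lower (median -0.05). Elongation and termination factors had 6 of 12 lower (median -0.01), and mTOR and TOP control genes 12 of 20 (median -0.03).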

How the data were processed

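Single hair cells were picked from P7 mouse cochleae and sequenced as full-length cDNA. The deposited table holds raw counts per gene and cell. Reads were aligned and counted with tools that the submitters' processing notes list as featureCounts 2.0.1, HISAT2 2.2.1 and SAMtools, on mm10; the annotation release, strand setting and handling of reads with several matches are not given in the sources used here. Reads of a member, of a near copy or of an antisense neighbour may not be told apart. Symbols and coordinates come from GENCODE vM21 (GRCm38), which matched 55034 identifiers; the 257 others held 0.0128% of counts.

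Counts were summed over a group's cells and scaled to 1000000 per group. Log2 ratios have exact conditional binomial (Clopper-Pearson) 95% intervals. These were run on simulated counts with counting error alone, the error they assume. That run cannot show how they do with variation among cells or animals. Members and lists were described if their mean over both groups was 1 CPM or more. No pair of cells was identical, and no doublet caller was run on these hand-picked cells. Named genes were the 6 canonical members at either end of each comparison, the paralogs, members with a special role, and the 2 list genes at either end; Rpl22 and Rpl22l1 were compared within cells after their values were seen. Some genes that this rule names are not reported here. The members and lists were chosen with earlier results of these data known. Near copies were pseudogenes with 10% or more of their 31-base words in a member. Alternatives covered scaling (TMM, edgeR 4.0.16; median of ratios), averaging over cells, cell sets (Gm15772, Y-linked transcripts and Xist), filters and near copies. Python 3.11.15, scipy 1.17.1 and R 4.3.3 were used.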

Additional observations from a re-analysis of the deposited data

Results flagged for a closer look

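Some members had genotype ratios of opposite sign in OHCs and IHCs, a difference that was not tested. By over 1.1-fold in each, with counting intervals clear of 0, there were 9 of 81. A limit of 1.25-fold was tried first and gave 0, and the lower limit was chosen after that was seen. How many of all genes met either limit was not counted. All 9 were higher in mutant OHCs and lower in mutant IHCs. Among them, the log2 ratios in OHCs and IHCs were 0.30 and -0.18 for Rpl17, 0.16 and -0.40 for Rpl26, 0.18 and -0.25 for Rpl36a, 0.24 and -0.35 for Rpl39, 0.49 and -0.16 for Rps10, 0.18 and -0.18 for Rps20, 0.38 and -0.18 for Rps25, and 0.34 and -0.19 for Rps26. Rps10 was under 4 CPM in all groups. In OHCs high in Gm15772 Rpl17, Rpl36a, Rpl39, Rps10 and Rps20 were below 0 (-0.16, -0.06, -0.14, -0.44 and -0.22), and in IHCs low in it Rps25 and Rps26 were above 0 (0.15 and 0.25). The opposite signs are those of the pooled cells.

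The median over the members also had opposite signs in different cells of the same type, which was not tested either. In OHCs it was 0.40 in cells low and -0.11 in cells high in Gm15772, and 0.32 in cells with Y-linked transcripts only and -0.15 in cells with Xist only. In IHCs the 4 values were 0.21, -0.33, 0.22 and -0.40. The sets are largely the same cells, so these are not independent observations.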

How the results depend on the processing

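For mutant against control OHCs the median of 0.18 was 0.12 with median-of-ratios scaling, 0.32 in cells with Y-linked transcripts only and 0.40 in cells low in Gm15772, and turned to -0.15 in cells with Xist only and -0.11 in cells high in Gm15772. For IHCs the median of -0.02 was -0.11 with TMM and -0.081 with median-of-ratios scaling, 0.22 and -0.40 in cells with Y-linked transcripts or Xist only, 0.21 and -0.33 in cells low and high in Gm15772, and -0.17 over members sharing under 25% of their windows. Control OHCs against control IHCs stayed below 0 in every alternative run (-0.20 to -0.12). The OHC minus IHC difference of 0.24 was 0.16 in cells with Y-linked transcripts only and 0.22 to 0.30 in the other alternatives. Of the members past 1.5-fold in mutant OHCs, those that turned were Rpl23a (-0.074) and Rpl7a (-0.38) in cells with Xist only, and Rpl7a (-0.016) and Rpl36al (-0.20) in cells high in Gm15772. Of all members, at any size, 48 of 82 had opposite signs in low and high OHCs, and 42 of 82 in OHCs with Y-linked transcripts or Xist only. The share of all genes with opposite signs was not counted, and the cause was not tested. Leaving out the 15 cells with supporting cell genes at 100 CPM or more gave 0.23, -0.04 and -0.19 in the 3 comparisons, an alternative chosen after seeing the data, as were near copies by sequence, the limit on shared windows, and leaving out 1 Ctrl OHC low in Slc26a5 and Ocm. No paired analysis was possible because each group is 1 sample, the replicate numbers in the labels only number cells, and the results come from no test.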
